A study of Mus musculus with 66 samples.

Results

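The residual state of the mouse rectum at experimental day 20, after injury with dextran sulfate sodium (DSS), was compared with the uninjured rectum at day 0. It was taken from a series of 66 RNA libraries of the distal bowel, of which 7 are used here: the rectum of 4 mice at day 0 (mice 1 to 4) and of 3 mice at day 20 (mice 17 to 19). Samples were chosen by section and day in their labels, and every gene of the deposited table was kept. The animals were C57Bl/6 mice bought at 6 weeks of age. Day 0 mice had received no DSS. Day 20 mice had received 3% DSS for 6 days from day 0 and were collected 14 days after it ended. Each mouse was collected once, and no group was collected on more than 1 experimental day, so the time since DSS and anything else that differed between collection days cannot be told apart. Mucosa was cut from whole bowel wall, so each library mixes epithelium with immune cells and connective tissue, and fewer cells of a type cannot be told apart from less RNA per cell. Rectum of 3 mice at day 9, 3 days after DSS ended, and mid-colon of the same 7 mice serve as references.

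DSS is a sulfated polysaccharide that damages the colonic epithelium and lets luminal bacteria reach the tissue, which draws in neutrophils and monocytes. The epithelium regrows from crypts and wound edges within days, while lymphoid cells, matrix enzymes and the ion transporters of surface cells can take longer to return to their former levels. The rectum is the last site of sodium and water uptake, through the aldosterone-controlled epithelial sodium channel.

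Defining genes of the rectal epithelium were abundant in all 7 libraries. Car1, a carbonic anhydrase of colonocytes, stood at 3352, 3465, 4883 and 4061 TPM, the length-scaled share of all transcripts in a library, at day 0 and at 3177, 1985 and 3574 TPM at day 20. Hoxd13, a homeobox gene of the hindmost body, stood at 63.4 to 66.4 TPM at day 0 and at 43.5 to 61.9 TPM at day 20. It was thus present in every library but lower at day 20, with ranges that do not overlap. Elavl4, of enteric neurons, stayed at or under 0.366 TPM in every library, and Adipoq and Plin1, of fat cells, were listed at 0 throughout. The share of TPM from mitochondrially encoded genes ranged from 16.3% to 20.0% at day 0 and from 13.6% to 20.6% at day 20, and genes at 1 TPM or more numbered 12130 to 12328 and 12261 to 13069. Ribosomal protein genes took 9.89% to 10.8% of TPM at day 0 and 11.1% to 12.6% at day 20, ranges that do not overlap, and their part in the results was not tested. Read counts are not given with the TPM, so the depth of each library is unknown.

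At day 20 many genes still differed from the uninjured rectum. Of 12677 genes tested, 354 (2.79%) were higher and 619 (4.88%) were lower at a limma p below 0.05 after Benjamini-Hochberg (BH) adjustment over all genes tested, here "called". Called rises were the larger: 216 called genes were higher and 168 lower by 1 or more on the log2(TPM + 1) scale, and 68 were higher and 10 lower by 2 or more. The median change over all genes tested was -0.03. The shares of 2.79% and 4.88% are the background for the list counts below. In all 973 called genes the day 20 and day 0 values did not overlap, so such a gap adds nothing to a call. The number called moved with every library. It was 52, 58, 53 and 282 without day 0 mouse 1, 2, 3 or 4, 485 and 234 without day 20 mouse 17 or 18, and 2873 (1523 higher and 1350 lower) without mouse 19. Of the 85 called genes chosen by the naming rule, 14, 14, 15 and 36 kept their call without day 0 mouse 1, 2, 3 or 4, 40 and 29 without mouse 17 or 18, and 85 without mouse 19.

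The 3 day 20 rectums did not stand equally far from day 0. Mouse 19 was the closest. Across genes, its log2 values correlated with those of the day 0 libraries at r = 0.959 to 0.971, against 0.916 to 0.928 for mouse 17 and 0.902 to 0.919 for mouse 18, while day 0 libraries correlated with each other at 0.980 to 0.985 (genes are not independent replicates). Mouse 19 was the nearest of the 3 to the day 0 mean in 70.1% of genes called higher, 57.5% of genes called lower and 47.5% of all genes tested.

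**Figure D1:**
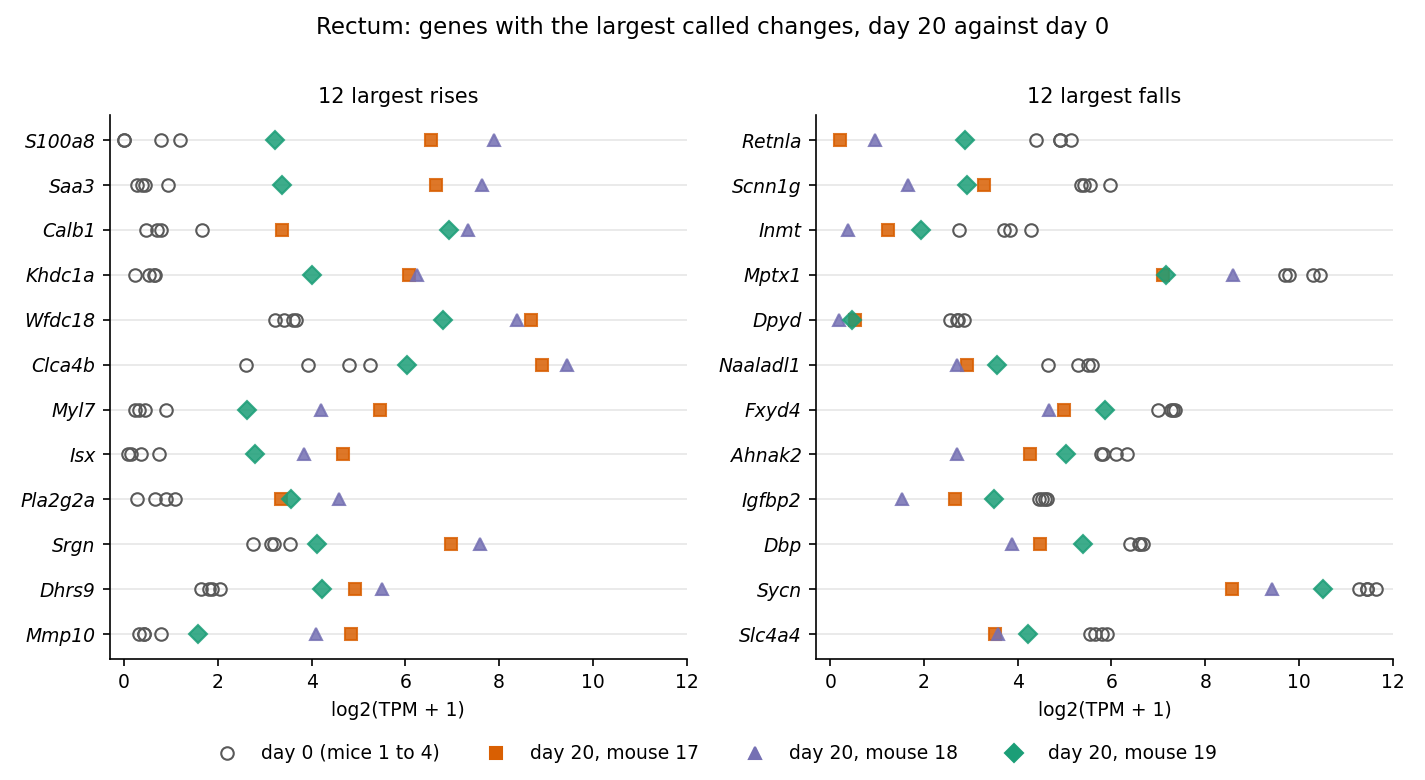
Values of log2(TPM + 1) in each rectum (horizontal axis) for the 12 named genes with the largest called rises and the 12 with the largest called falls, without predicted genes and receptor segments; open circles are the 4 day 0 mice and filled symbols the 3 day 20 mice. Day 20 values of each gene lie outside the day 0 range because the choice of genes required it. Mouse 19 is the nearest to the day 0 mean in 10 of the 12 rises and 9 of the 12 falls.

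Among genes with an established name, the largest rises included a neutrophil gene, secreted defence proteins and genes that the uninjured rectum hardly held. Predicted genes, clone names and immunoglobulin or T cell receptor segments, whose reads may be shared with other loci, were left out of this ranking; 7 such rises and 2 such falls were as large as those ranked. The largest of them, Gm16089, was at or under 0.0404 TPM in every day 0 rectum and at 196.8, 80.1 and 293.6 TPM in mice 17, 18 and 19 (limma BH-adjusted p = 0.000385). In the mid-colon of the same mice Gm16089 was abundant without injury, at 44.95, 66.1, 149.2 and 335.7 TPM at day 0 and 108.1, 223.6 and 642.1 TPM at day 20. S100a8, a subunit of the neutrophil protein calprotectin, was listed at 0, 1.27, 0.715 and 0 TPM at day 0 and at 92.8, 238 and 8.26 TPM in mice 17, 18 and 19. All 3 day 20 mice stood above all 4 day 0 mice, with mouse 19 far below the other two (log2 change 5.40 ± 0.95 SE, limma BH-adjusted p = 0.0245). Saa3, an acute-phase serum amyloid protein, stood at 0.211, 0.354, 0.298 and 0.908 TPM and then at 100.3, 197 and 9.38 TPM (5.38 ± 0.86, limma BH-adjusted p = 0.0191). Wfdc18, a small secreted protein with a protease inhibitor fold, stood at 8.38, 11.7, 9.66 and 11.2 TPM and then at 410.1, 331.9 and 109.9 TPM. Here even mouse 19 was far above the day 0 range (4.47 ± 0.40, limma BH-adjusted p = 0.00443), and the call held in all 7 fits that each left out 1 library.

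Calb1, the calcium-binding protein calbindin, had a different order of mice. It stood at 0.380, 0.635, 2.17 and 0.726 TPM at day 0 and at 9.31, 161.5 and 120.6 TPM in mice 17, 18 and 19, so that here mouse 17 was the lowest (4.97 ± 0.86, limma BH-adjusted p = 0.0238). Khdc1a, of a family known from oocytes and with near-identical copies that can share reads, stood at 0.170 to 0.574 TPM at day 0 and at 66.8, 74.6 and 15.0 TPM at day 20 (4.93 ± 0.49, limma BH-adjusted p = 0.00691). Isx, an intestinal homeobox factor that represses vitamin A uptake and conversion, stood at 0.0673, 0.113, 0.666 and 0.282 TPM and then at 24.5, 13.3 and 5.92 TPM (3.43 ± 0.40, limma BH-adjusted p = 0.00797). Dhrs9, which acts in retinoid metabolism, stood at 2.13 to 3.11 TPM and then at 29.3, 44.5 and 17.7 TPM (3.05 ± 0.28, limma BH-adjusted p = 0.00443). Both retinoid-linked genes and Khdc1a were called in all 7 fits that left out a library.

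The remaining large rises were Clca4b, of the calcium-activated chloride channel regulators and with close copies, Myl7, an atrial myosin light chain, Pla2g2a, a secreted antibacterial phospholipase, Srgn, the proteoglycan of leukocyte granules, and Mmp10, the matrix protease stromelysin-2. Clca4b stood at 5.05, 36.7, 14.2 and 26.8 TPM at day 0 and at 481.7, 692.9 and 64.4 TPM at day 20. Pla2g2a stood at 0.217 to 1.11 TPM and then at 9.14, 22.9 and 10.8 TPM, with the 3 day 20 mice close together. Srgn stood at 5.77 to 10.7 TPM and then at 125.5, 191.2 and 16.3 TPM. For S100a8, Clca4b, Srgn and Mmp10 the call was present in 1 of the 7 fits that left out a library, the one without mouse 19.

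The largest falls of named genes included secreted proteins (Retnla, Mptx1 and Sycn), transport genes (Scnn1g, Slc4a4 and Fxyd4), enzymes (Dpyd, Naaladl1 and Inmt) and the clock factor Dbp, and some were as deep in mouse 19 as in the other two. Retnla, a resistin-like secreted protein, stood at 34.1, 28.8, 28.9 and 19.9 TPM at day 0 and at 0.155, 0.934 and 6.39 TPM at day 20 (log2 change -3.48 ± 0.55 SE, limma BH-adjusted p = 0.0187). Dpyd, which starts the breakdown of uracil and thymine, stood at 6.23, 5.51, 5.66 and 4.85 TPM and then at 0.433, 0.133 and 0.382 TPM. The 3 day 20 mice lay together, far under the lowest day 0 mouse, and the change of -2.32 ± 0.16 (limma BH-adjusted p = 0.0015) was called in all 7 fits that left out a library. Mptx1, a pentraxin secreted by intestinal epithelium, stood at 1257, 829.3, 881.3 and 1388 TPM and then at 135.8, 385.1 and 141.5 TPM (-2.44 ± 0.37, limma BH-adjusted p = 0.0175). Sycn, syncollin of secretory granules, was the most abundant of the 12, at 2485 to 3220 TPM at day 0 and at 380.8, 685.1 and 1452 TPM at day 20 (-1.96 ± 0.38, limma BH-adjusted p = 0.0294).

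Naaladl1, a brush border aminopeptidase, stood at 24.1 to 46.8 TPM at day 0 and at 6.52, 5.48 and 10.7 TPM at day 20. Fxyd4, a regulator of the sodium pump, stood at 126 to 161.7 TPM and then at 30.6, 24.6 and 57.2 TPM. Both groups lay apart for these genes, and both calls held in all 7 fits that left out a library, as did those of Scnn1g and Slc4a4. Inmt, an N-methyltransferase, Ahnak2, a large scaffold protein, and Igfbp2, which binds insulin-like growth factors, fell by 2.45, 2.01 and 1.98 on the log2 scale, with limma BH-adjusted p of 0.0245, 0.0418 and 0.0297. Those 3 and Sycn were each called in 2 of the 7 fits. With the scaling factors of the trimmed mean method all 24 genes remained called.

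Sodium uptake and its hormone axis held the most called falls of any list. In the list of salt and water transport genes, 9 of 20 tested members fell, against 4.88% of all genes called lower, and 1 rose. Their median log2 change was -0.92 against -0.03 over all genes tested. Scnn1g, the gamma subunit of the epithelial sodium channel, stood at 39.8, 61.7, 41.9 and 45.3 TPM at day 0 and at 8.68, 2.15 and 6.55 TPM at day 20, and changed by -2.95 ± 0.36 (SE; limma BH-adjusted p = 0.00863). Scnn1b, its beta subunit, stood at 25.7 to 29.1 TPM and then at 11.0, 7.38 and 10.7 TPM (-1.43 ± 0.15, limma BH-adjusted p = 0.00723). For both subunits mouse 19 lay with the other two day 20 mice. Slc4a4, a sodium bicarbonate cotransporter, stood at 58.7, 45.4, 54.5 and 49.5 TPM and then at 10.5, 11.0 and 17.6 TPM (-1.95 ± 0.19, limma BH-adjusted p = 0.00647).

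Further members named here were chosen after their values were seen, because they belong to the channel, the pump and the receptor. Scnn1a, the alpha subunit, fell from between 109.4 and 140.6 TPM to 59.3, 40.7 and 89.6 TPM (-1.07 ± 0.24, limma BH-adjusted p = 0.0389). Atp1b1, the beta subunit of the sodium pump, fell by 0.73 on the log2 scale (limma BH-adjusted p = 0.0128). Hsd11b2, which keeps cortisol-type steroids away from the mineralocorticoid receptor, fell by 1.11 and the receptor gene Nr3c2 by 0.75 (limma BH-adjusted p = 0.00784 and 0.0497). Aqp4, a water channel, was the member that rose, from 7.41, 6.53, 6.73 and 13.0 TPM to 17.1, 46.9 and 38.3 TPM (1.83 ± 0.35, limma BH-adjusted p = 0.0297). Sgk1, an aldosterone-induced kinase, was not called: it stood at 249.2 to 481.4 TPM at day 0 and at 135.1, 34.4 and 343.3 TPM at day 20, and mouse 19 lay inside the day 0 range. Over the fits that left out 1 library each, 5 to 14 members of this list were called lower, most without mouse 19.

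Most markers of absorptive colonocytes were not called. Of 15 tested, 2 fell and 1 rose, with a median of -0.23. At an unadjusted p below 0.05, 6 were lower and 3 higher, against 17.1% and 11.7% of all genes tested. Car4, a membrane carbonic anhydrase of surface colonocytes, stood at 2731, 3056, 3297 and 3230 TPM at day 0 and at 592.2, 1471 and 1858 TPM at day 20 (-1.39 ± 0.34, limma BH-adjusted p = 0.0471, and 0.0665 with the trimmed-mean scaling). Mep1a, the brush border protease meprin A, fell by 0.85, and Guca2b, the peptide uroguanylin, rose from between 11.5 and 15.5 TPM to 43.5, 35.2 and 30.2 TPM (1.37 ± 0.16, limma BH-adjusted p = 0.00784). Slc26a3, the chloride bicarbonate exchanger of the surface, stood at 1011 to 1291 TPM and then at 412.1, 477.5 and 998.5 TPM, and Aqp8, a water channel, at 827.7 to 1186 TPM and then at 274.1, 529 and 785.4 TPM. Neither was called (limma BH-adjusted p = 0.0617 and 0.0759), and for both mouse 19 was the closest to day 0. Krt20, a keratin of differentiated cells, stood at 585.4 to 721.4 TPM and at 703.2 to 846.5 TPM, and the ranges overlapped.

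Secretory cell genes moved in both directions. Of 16 goblet cell genes 1 rose and 3 fell, with a median of -0.02. Spink4, a small protein of goblet cells, stood at 829.8, 852.1, 744.9 and 1058 TPM at day 0 and at 1629, 3154 and 1436 TPM at day 20 (1.17 ± 0.26, limma BH-adjusted p = 0.0384). Creb3l1, a transcription factor of secretory cells, Best2, a bicarbonate channel, and Bcas1 fell by 0.95, 0.88 and 0.77 on the log2 scale, the last with a limma BH-adjusted p of 0.0396 that became 0.0594 with the trimmed-mean scaling. Muc2, the main gel-forming mucin, stood at 510.4 to 642.7 TPM and then at 717.2, 1312 and 925 TPM, above all day 0 mice, and was not called (limma BH-adjusted p = 0.0652).

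Of 10 enteroendocrine genes tested 3 rose, against 2.79% of all genes called higher, and none fell, with a median of 0.47. Chgb, a granin of hormone granules, stood at 14.9, 9.84, 10.4 and 15.5 TPM at day 0 and at 27.3, 24.7 and 20.9 TPM at day 20. Tph1, which makes serotonin in enterochromaffin cells, stood at 1.60 to 3.02 TPM and then at 4.53, 5.23 and 5.60 TPM. The groups were apart for both, and mouse 19 was the highest for Tph1 (0.88 ± 0.18, limma BH-adjusted p = 0.0334). Pyy, the hormone peptide YY, stood at 160.9 to 182.8 TPM and then at 209.6, 294.5 and 367.4 TPM (0.72 ± 0.18, limma BH-adjusted p = 0.0481, and 0.069 with the trimmed-mean scaling). Among 8 tuft cell genes Alox5ap rose, by 0.54, and none fell.

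Of 15 genes for defence proteins of the epithelium 4 were called higher and 1, Retnla, lower, with a median of 0.49. Over all genes tested 2.79% were called higher and 4.88% lower. Of the 15, 5 were at 1 TPM or more in fewer than 3 day 0 mice, Saa3 and Pla2g2a among them, and entered through their day 20 values. Another 5 listed genes stayed under the filter. Besides Saa3 and Pla2g2a, Cd177, a surface glycoprotein first known from neutrophils, rose by 1.35, from between 13.0 and 22.7 TPM to 35.0, 80.2 and 38.9 TPM (limma BH-adjusted p = 0.0389). Reg4, a secreted lectin named here after its values were seen, stood at 157, 144, 162 and 221 TPM and then at 350, 374 and 426 TPM, with a limma BH-adjusted p of 0.0136. Its 3 day 20 values lay close together, with mouse 19 the highest.

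Renewal and wound genes were largely not called. Of 15 proliferation genes Rrm2, a subunit of ribonucleotide reductase, rose, from between 2.17 and 3.45 TPM to 14.0, 6.49 and 5.01 TPM (1.29 ± 0.30, limma BH-adjusted p = 0.0421), and the list's median was 0.31. The median distance of these 15 genes from the day 0 mean was 1.00 in mouse 17, 0.27 in mouse 18 and -0.34 in mouse 19. Of 17 genes of injury-associated epithelium Areg, the growth factor amphiregulin, rose, from 18.5, 11.5, 18.5 and 12.5 TPM to 38.6, 31.0 and 33.0 TPM (1.14 ± 0.20, limma BH-adjusted p = 0.0237), and the median was 0.67. At an unadjusted p below 0.05, 8 of the 17 were higher, against 11.7% of all genes tested, and none was lower. From 0 to 9 were called higher in the fits that left out 1 library. The 9 were those without mouse 19, in a fit that called 1523 of 13196 genes higher. The list summed to 1874 to 2166 TPM at day 0 and to 5265, 5873 and 2158 TPM in mice 17, 18 and 19. Among 11 crypt stem cell and Wnt target genes Lrig1, a brake on growth factor receptors in crypts, fell by 0.55 (limma BH-adjusted p = 0.0407).

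Transcription factors of the intestinal lineage included the strongly raised Isx and 4 that fell, of 16 tested, with a median of -0.57. Among all genes 4.88% were called lower and 2.79% higher. Klf4, which acts in goblet and surface cell maturation, stood at 320.8, 275.5, 305.3 and 246.5 TPM at day 0 and at 155.2, 110.6 and 209.4 TPM at day 20 (-0.89 ± 0.20, limma BH-adjusted p = 0.0404). Cdx1, a homeobox factor of hindgut identity, stood at 94.4 to 132.6 TPM and then at 73.9, 60.5 and 53.7 TPM, with mouse 19 the lowest (-0.83 ± 0.16, limma BH-adjusted p = 0.0309). Gata6, a zinc finger factor of endoderm named after its values were seen, fell by 0.72 (limma BH-adjusted p = 0.0239). Cdx2 stood at 2.24 to 4.54 TPM and then at 9.36, 2.66 and 11.5 TPM, and the groups overlapped.

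Energy metabolism was lower in part. Of 20 nuclear genes of oxidative phosphorylation 7 fell, against 4.88% of all genes called lower, and none rose, with a median of -0.16. Limma called none of 12 mitochondrially encoded genes, and none of these 12 had an unadjusted p below 0.05. Uqcrc1, of complex III, stood at 177.3, 150.6, 156.4 and 123.1 TPM at day 0 and at 89.8, 76.2 and 93.4 TPM at day 20 (-0.80 ± 0.14, limma BH-adjusted p = 0.025). Ndufb8, of complex I, Sdhc, of complex II, and Cyc1, of complex III, fell by 0.57, 0.77 and 0.63. For Sdhc the lowest day 20 value, 52.3 TPM, was that of mouse 19. The mitochondrially encoded mt-Co1 stood at 36380 to 41450 TPM and then at 27140, 34610 and 44350 TPM, on both sides of the day 0 range.

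In fatty acid oxidation and ketone synthesis 1 of 17 genes was called lower, a share near the 4.88% of all genes called lower. Acads, the short-chain acyl-CoA dehydrogenase that starts the oxidation of butyrate, stood at 50.8, 44.0, 46.9 and 39.4 TPM at day 0 and at 26.0, 22.9 and 25.2 TPM at day 20. The 3 day 20 mice were nearly equal (-0.84 ± 0.12, limma BH-adjusted p = 0.0152).

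Of 32 tested genes of xenobiotic metabolism 4 fell, against 4.88% of all genes called lower, and none rose, with a median of -0.44. The 4 were the cytochrome P450 genes Cyp2s1 and Cyp2b10, the sulfotransferase Sult1c2 and Ugt1a1. Ugt1a1 conjugates bilirubin and drugs with glucuronic acid and shares exons with its gene cluster. Cyp2s1 stood at 114.1, 97.5, 98.6 and 79.3 TPM and then at 37.2, 26.4 and 52.9 TPM (-1.35 ± 0.23, limma BH-adjusted p = 0.0212). From 0 to 14 members were called lower in the fits that left out 1 library. The 14 were those without mouse 19, in a fit that called 1350 of 13196 genes lower.

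**Figure D2:**
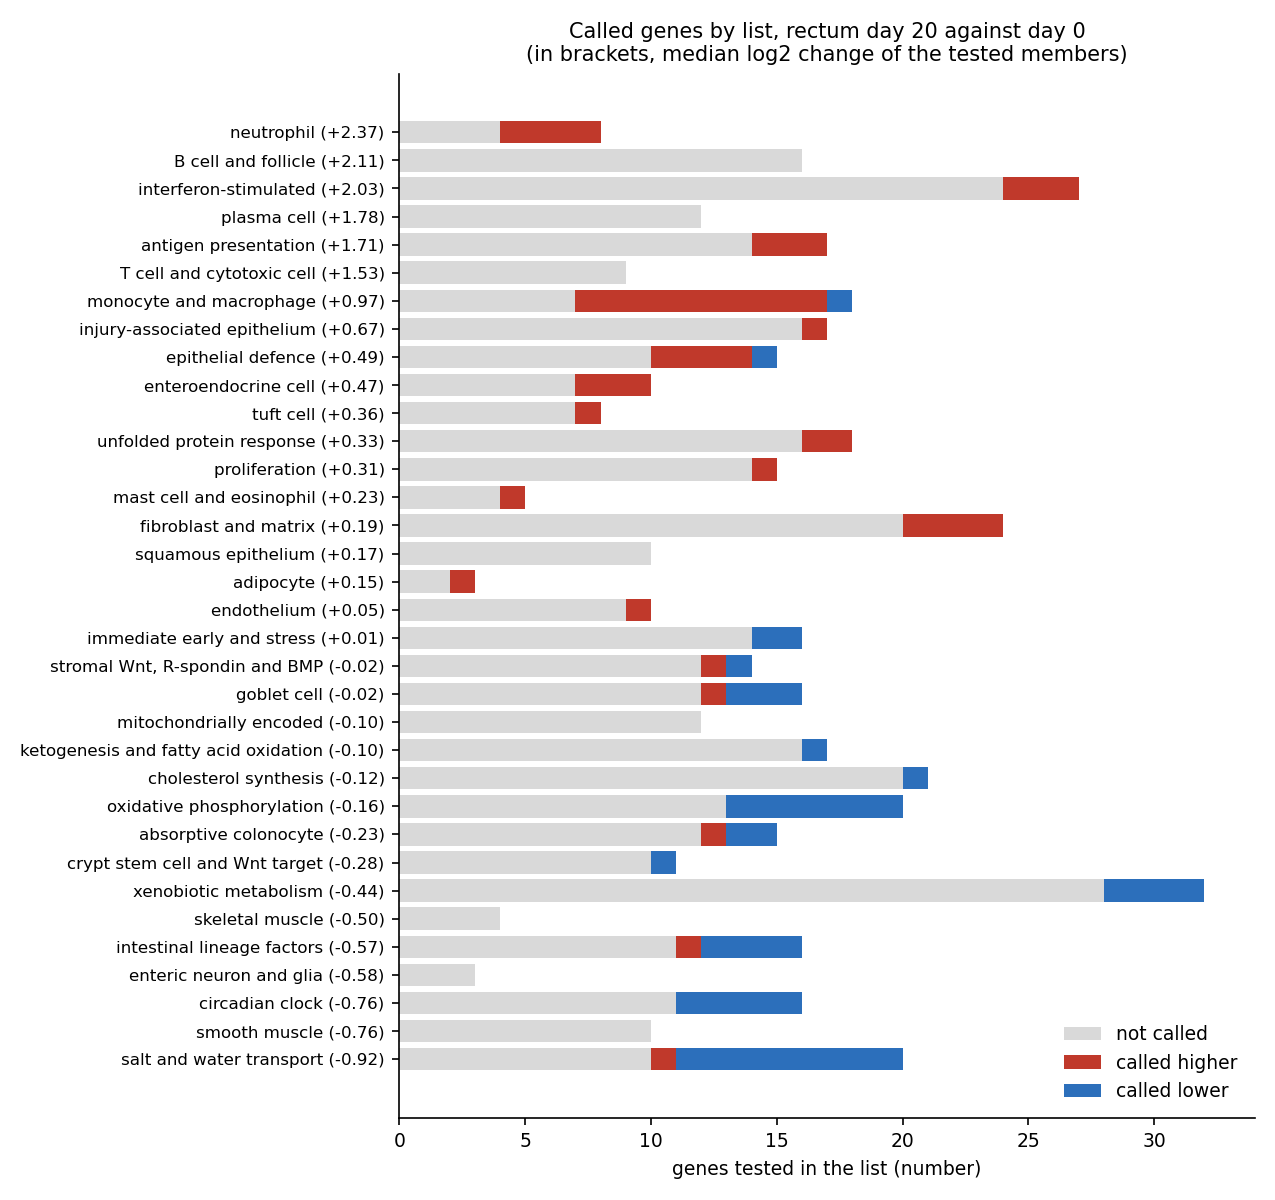
Number of tested genes in each of 34 lists (horizontal axis) that were called higher, called lower or not called at day 20 against day 0, with the median log2 change of the tested members in brackets. Salt and water transport has the lowest median, -0.92; monocyte and macrophage genes have the most called rises, 10 of 18.

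Output genes of the circadian clock were lower at day 20, while its activators were not called. Of 16 tested clock genes 5 fell, against 4.88% of all genes called lower, and none rose, with a median of -0.76. Dbp, a transcription factor driven directly by the clock, stood at 94.6, 96.1, 101 and 82.6 TPM at day 0 and at 21.2, 13.8 and 41.3 TPM at day 20 (-1.97 ± 0.31, limma BH-adjusted p = 0.0175). Per1, a repressor in the clock's feedback loop, stood at 18.0, 14.6, 17.4 and 15.4 TPM and then at 3.14, 2.45 and 9.19 TPM (-1.72 ± 0.34, limma BH-adjusted p = 0.0307). Cry2, a second repressor, and Tef, a relative of Dbp, fell by 1.45 and 1.14. Tef had the tightest day 0 values, 52.8 to 54.9 TPM, against 23.2, 15.6 and 36.5 TPM. In each of these genes the groups were apart, mouse 18 was the lowest, and mouse 19 was the nearest to day 0. The activators Arntl and Clock stood at 8.98 to 13.6 and 15.1 to 16.3 TPM at day 0 and at 8.98 to 10.5 and 14.3 to 17.9 TPM at day 20, with changes of -0.06 and 0.01. From 0 to 9 members were called lower in the fits that left out 1 library, 9 without mouse 19.

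Clock activators bind the E-box CACGTG, and interferon-induced factors bind the interferon-stimulated response element, searched here by its core GAAANNGAAA. In the 250 bases before the RefSeq gene start (build GRCm38.p6), 5 of 14 clock genes with a window held the E-box, 35.7% against 6.02% of all 32851 windows, and 14 of 22 interferon-stimulated genes held the core on either strand, 63.6% against 2.98%. Of the 4 called clock genes with a window, Per1 and Tef held the E-box and Dbp and Cry2 did not, and the other 3 matches were in Cry1, Bhlhe41 and Ciart, which were not called. Of the interferon-stimulated genes with the core, 2 were called and 12 were not. The shares cover called and uncalled members alike, so they describe the lists and not the day 20 changes. Matches can overlap, and each is a description of the letters and not a measured binding site. The windows of 3 called genes are printed because they carry such matches: Per1 from the lowered clock genes (chr11:69098699-69098948, plus strand), Ifit1 (chr19:34640639-34640888, plus strand) and Bst2 (chr8:71537473-71537722, minus strand) from the raised interferon genes. Each is given 5′ to 3′ on the gene's strand, with matches in capitals.
Per1: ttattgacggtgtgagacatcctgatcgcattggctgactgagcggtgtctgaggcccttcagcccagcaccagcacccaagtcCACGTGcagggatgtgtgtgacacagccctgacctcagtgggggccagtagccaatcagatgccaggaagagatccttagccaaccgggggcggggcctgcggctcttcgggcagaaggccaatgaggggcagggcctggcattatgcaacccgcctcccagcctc
Ifit1: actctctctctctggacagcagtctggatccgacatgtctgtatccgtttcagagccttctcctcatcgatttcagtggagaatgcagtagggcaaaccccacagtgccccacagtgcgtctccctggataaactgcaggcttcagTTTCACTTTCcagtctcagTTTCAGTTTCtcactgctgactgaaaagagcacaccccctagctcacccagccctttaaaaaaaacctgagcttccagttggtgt
Bst2: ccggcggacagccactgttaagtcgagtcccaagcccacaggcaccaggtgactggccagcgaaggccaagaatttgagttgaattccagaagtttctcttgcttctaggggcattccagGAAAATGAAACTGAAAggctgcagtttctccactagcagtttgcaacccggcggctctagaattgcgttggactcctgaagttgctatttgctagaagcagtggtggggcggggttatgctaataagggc
In Per1 the E-box began 166 bases before the gene start. In Ifit1 2 matches began 104 and 85 bases before it, and in Bst2 2 overlapping matches began 130 and 124 bases before it.

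Interferon-stimulated genes stood high together in mice 17 and 18, most in mouse 18, and few passed the test. Of 27 tested 3 rose and none fell, the median was 2.03, and in 18 of 27 all day 20 values lay above all day 0 values, as in 10.2% of all genes tested. Of the 27, 7 were at 1 TPM or more in fewer than 3 day 0 mice and so entered the test through their day 20 values, and 6 listed genes stayed under the filter. Ifit1, which blocks translation of viral RNA, stood at 4.45, 1.39, 2.08 and 4.39 TPM at day 0 and at 28.7, 79.7 and 7.04 TPM at day 20 (2.81 ± 0.69, limma BH-adjusted p = 0.0476). Zbp1, a sensor of Z-form nucleic acids, stood at 18.1, 16.2, 16.2 and 15.4 TPM and then at 86.1, 315 and 41.3 TPM (2.59 ± 0.56, limma BH-adjusted p = 0.0361). Bst2, or tetherin, stood at 6.62 to 10.4 TPM and then at 33.1, 36.1 and 12.6 TPM (1.40 ± 0.34, limma BH-adjusted p = 0.0451). The list's summed level was 307.3 to 381.8 TPM at day 0 and 914.7, 3484 and 472.1 TPM in mice 17, 18 and 19. Without mouse 19, 30 members were called higher, and over the fits without another library the number went down to 0.

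Antigen presentation had 3 called rises among 17 tested and a median of 1.71. H2-Aa, a chain of the class II molecule, stood at 117, 83.4, 87.8 and 162 TPM at day 0 and at 631.5, 1127 and 188.2 TPM at day 20 (2.23 ± 0.54, limma BH-adjusted p = 0.0451). H2-Eb1, another class II chain, stood at 35.7 to 62.7 TPM and then at 251.1, 307.9 and 68.2 TPM, so that mouse 19 lay just above the highest day 0 mouse. B2m, the light chain of class I, stood at 344.8 to 418.4 TPM and then at 1129, 3302 and 709.4 TPM (1.89 ± 0.44, limma BH-adjusted p = 0.0416). From 0 to 15 members were called over the fits that left out 1 library, 15 without mouse 19.

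Only 8 of 16 neutrophil genes passed the filter on low values, and 4 of them were called higher and none lower. Of the 8, 5 were at 1 TPM or more in fewer than 3 day 0 mice and passed only with their day 20 values counted in, so the count and the median of 2.37 describe these members and not the list. Csf3r, the receptor for granulocyte colony-stimulating factor, stood at 0.111 to 0.258 TPM at day 0 and at 5.88, 17.6 and 1.18 TPM at day 20 (2.46 ± 0.60, limma BH-adjusted p = 0.0457). Cxcl5, a chemokine that attracts neutrophils, stood at 5.07, 4.55, 6.23 and 6.15 TPM and then at 50.3, 52.3 and 10.5 TPM, and Clec4d, a lectin receptor, rose by 2.27. S100a9, the partner of S100a8, stood at 1.84, 1.74, 4.22 and 0.247 TPM and then at 120.9, 331.4 and 4.59 TPM. Mouse 19 was barely above the highest day 0 mouse for it, and it was not called (4.51 ± 1.22, limma BH-adjusted p = 0.059). Ly6g, singled out after its values were seen because it is widely used as a neutrophil marker, stood at 602 to 736 TPM at day 0, where S100a8 and Csf3r were near 0, and at 552, 747 and 502 TPM at day 20. The number called in this list was 0 to 14 over the fits that left out 1 library, 14 without mouse 19.

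Monocyte and macrophage genes had the most called rises of any list, 10 of 18 tested, with 1 fall and a median of 0.97. Over all genes tested 2.79% were called higher. Of the 18, 3 were at 1 TPM or more in fewer than 3 day 0 mice and entered the test through their day 20 values. Lyz2, lysozyme of myeloid cells, stood at 168.7, 116.3, 125.4 and 184.9 TPM at day 0 and at 464.2, 405.3 and 289.8 TPM at day 20 (1.37 ± 0.21, limma BH-adjusted p = 0.0177). C1qa, of complement C1q, stood at 28.1 to 37.4 TPM and then at 87.9, 61.9 and 52.6 TPM (1.03 ± 0.19, limma BH-adjusted p = 0.027), and Ms4a7 rose by 1.31. In these 3 genes mouse 19 was well above the day 0 range. Ly6c2, of inflammatory monocytes and with a close copy that can share reads, and Fcgr4, an activating Fc receptor, rose by 2.30 and 2.14. Cd163, a scavenger receptor of resident macrophages and the member that fell, was named after its values were seen: it stood at 1.15 to 1.95 TPM and then at 0.447, 0.409 and 0.859 TPM (-0.78 ± 0.19, limma BH-adjusted p = 0.0473). Csf1r and Adgre1, the usual pan-macrophage genes, stood at 6.07 to 7.84 and 2.70 to 3.65 TPM and then at 5.59 to 12.8 and 2.86 to 5.25 TPM, overlapping in both cases. From 0 to 15 members were called higher over the fits without 1 library.

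Lymphoid genes were high in mice 17 and 18 and lower in mouse 19, and limma called none of the genes in 3 lists. The B cell and follicle list had 16 of 21 genes tested and a median of 2.11, the plasma cell list 12 of 16 and 1.78, and the T cell and cytotoxic cell list 9 of 25 and 1.53. Of those tested, 13, 3 and 4 were at 1 TPM or more in fewer than 3 day 0 mice, so they entered through their day 20 values. At an unadjusted p below 0.05, 16, 7 and 8 members were higher, against 11.7% of all genes tested. Igkc, the kappa light chain, stood at 865.4, 217.4, 370.5 and 456 TPM at day 0 and at 8278, 6104 and 373.9 TPM at day 20. The plasma cell genes Jchain and Mzb1 showed the same split, Jchain with 26.5 to 113.6 TPM and then 897.3, 674.1 and 34.4 TPM. The summed plasma cell list was 514.1 to 1505 TPM at day 0 and 12526, 8631 and 725.5 TPM in mice 17, 18 and 19. Without mouse 19, 15 plasma cell genes, 20 B cell genes and 19 T cell genes were called higher, in a fit that called 1523 of 13196 genes higher. Over the fits that left out 1 library the lowest number was 0 in each list. With the trimmed-mean scaling the numbers were 1, 2 and 1.

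Receptor segments outside these lists were called, as seen only after their values were examined. Of 308 immunoglobulin segments 107 were tested, and 10 rose and none fell, with a median of 1.68, against 2.79% of all genes called higher. Of 226 T cell receptor segments only Trbv25 passed the filter, and it rose. Except Igkv4-53, each called segment was at 1 TPM or more in fewer than 3 day 0 mice and entered through its day 20 values. The count and the median thus describe these members and not all segments. Segment sequences are alike, and reads may be shared between them. Igkv8-28 was listed at 0 in all 4 day 0 mice and stood at 3.27, 1.96 and 4.18 TPM in mice 17, 18 and 19 (limma BH-adjusted p = 0.00723). Ighv1-82, also listed at 0 at day 0, stood at 19.3, 12.9 and 2.31 TPM (limma BH-adjusted p = 0.02), and Igkv4-53 stood at 1.09 to 1.83 TPM and then at 19.6, 36.3 and 4.70 TPM (2.78 ± 0.54, limma BH-adjusted p = 0.0297). Trbv25 was listed at 0 at day 0 and stood at 2.88, 7.45 and 9.67 TPM (limma BH-adjusted p = 0.00766). Mouse 19 was the highest for Igkv8-28 and Trbv25, and mouse 17 or 18 for the 9 others.

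Day 0 mice differed among themselves in B cell genes. Cd79a, of the B cell receptor, stood at 3.97, 0.177, 0.239 and 9.96 TPM at day 0 and at 51.0, 27.6 and 5.10 TPM at day 20, so that mouse 19 lay between day 0 mice 1 and 4. Ms4a1, or CD20, had the same order, with 1.92, 0.714, 0.503 and 4.16 TPM and then 20.2, 15.2 and 2.57 TPM. Trbc2, a constant region of the T cell receptor, stood at 3.52, 1.07, 0.602 and 1.36 TPM and then at 23.0, 23.2 and 3.27 TPM (2.47 ± 0.63, limma BH-adjusted p = 0.0511). Mcpt1, a protease of mucosal mast cells, rose from between 0.282 and 0.867 TPM to 18.8, 8.16 and 3.11 TPM (2.56 ± 0.46, limma BH-adjusted p = 0.0254).

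Of 24 fibroblast and matrix genes 4 rose and none fell, with a median of 0.19: the matrix proteases Mmp3, Mmp10 and Mmp13 and their inhibitor Timp1. Over all genes tested 2.79% were called higher. Of the 24, 3 were at 1 TPM or more in fewer than 3 day 0 mice, Mmp3 and Mmp10 among them, and entered the test through their day 20 values. The collagens of the list were not called. Matrix proteases outside the list, counted after the values were seen, went in both directions: of 12 tested Mmp genes Mmp28 also rose and Mmp15, a membrane-bound member, fell, and of 4 Adamts genes Adamts15 fell. Mmp15 stood at 42.4 to 61.9 TPM at day 0 and at 32.8, 18.2 and 29.7 TPM at day 20 (-0.90 ± 0.22, limma BH-adjusted p = 0.0443). Mmp10 stood at 0.345, 0.738, 0.341 and 0.251 TPM at day 0 and at 27.8, 16.1 and 1.98 TPM at day 20. Mmp3, stromelysin-1, stood at 0.232 to 1.06 TPM and then at 24.9, 10.1 and 2.21 TPM, and Mmp13, collagenase-3, rose by 2.02. Timp1, an inhibitor of these enzymes, stood at 2.35, 2.18, 3.44 and 2.16 TPM and then at 19.3, 10.6 and 7.15 TPM (1.83 ± 0.30, limma BH-adjusted p = 0.02). All 4 were highest in mouse 17 and lowest in mouse 19. Col1a1 stood at 19.0 to 25.9 TPM and then at 25.2, 7.79 and 11.9 TPM, and Dcn at 191.1 to 242.5 TPM and then at 386.8, 143.1 and 323 TPM.

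Among stromal signals Grem1, a secreted antagonist of BMP proteins from crypt-base fibroblasts, rose and Bmp2 fell, of 14 genes tested. Grem1 stood at 4.91, 4.80, 5.93 and 7.00 TPM at day 0 and at 29.5, 10.9 and 19.7 TPM at day 20 (1.57 ± 0.30, limma BH-adjusted p = 0.0285). Bmp2, made by differentiated epithelium and stroma, stood at 41.0, 41.0, 42.8 and 32.0 TPM and then at 19.6, 23.0 and 19.6 TPM. The 3 day 20 mice were nearly equal for Bmp2 (-0.88 ± 0.14, limma BH-adjusted p = 0.0175). Pecam1, an adhesion molecule of endothelium and some leukocytes, rose by 1.84 and was highest in mouse 19, at 70.3 TPM against 9.71 to 20.5 TPM at day 0, while 9 other endothelial genes tested were not called. Fabp4, of fat cells, capillaries and macrophages, rose by 1.30.

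Smooth muscle and squamous epithelial genes varied between mice. The summed smooth muscle list was 1261 to 1491 TPM at day 0 and 881.5, 340.8 and 1580 TPM in mice 17, 18 and 19, with a median of -0.76, and limma called none of 10 genes, of which 1 was lower at an unadjusted p below 0.05, against 17.1% of all genes tested. Myh11, smooth muscle myosin, was lowest in mouse 18, at 6.51 TPM against 38.2 to 51.0 TPM at day 0. The squamous epithelium list, which marks the anal side, summed to 106.7 to 382.4 TPM at day 0 and to 798.7, 494.3 and 126.1 TPM at day 20, and limma called none of 10 genes tested, with 2 lower at an unadjusted p below 0.05. Krt14, a basal keratin, stood at 7.16 to 25.3 TPM and then at 233.3, 131.2 and 6.26 TPM, and Krt5 was nearly missing from mouse 19, at 0.029 TPM. Mouse 19 thus had the highest smooth muscle and the lowest squamous level of the 3 day 20 mice, and the part of these tissues in the changes above was not tested.

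Among 18 genes of the unfolded protein response Manf, a secreted endoplasmic reticulum stress protein, and Pdia4, a disulfide isomerase, rose by 0.82 and 0.59 (limma BH-adjusted p = 0.0345 and 0.0497), and none fell. The share called higher among all genes was 2.79%. Manf stood at 83.9 to 96.0 TPM at day 0 and at 174.2, 195.9 and 117.3 TPM at day 20. Of 16 immediate early and stress genes Jund, of the AP-1 factors, and Ier2 fell, by 1.26 and 0.79, and the list's median was 0.01. Jund stood at 154.1, 127.3, 155.6 and 84.9 TPM and then at 56.0, 39.7 and 65.1 TPM.

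**Figure D3:**
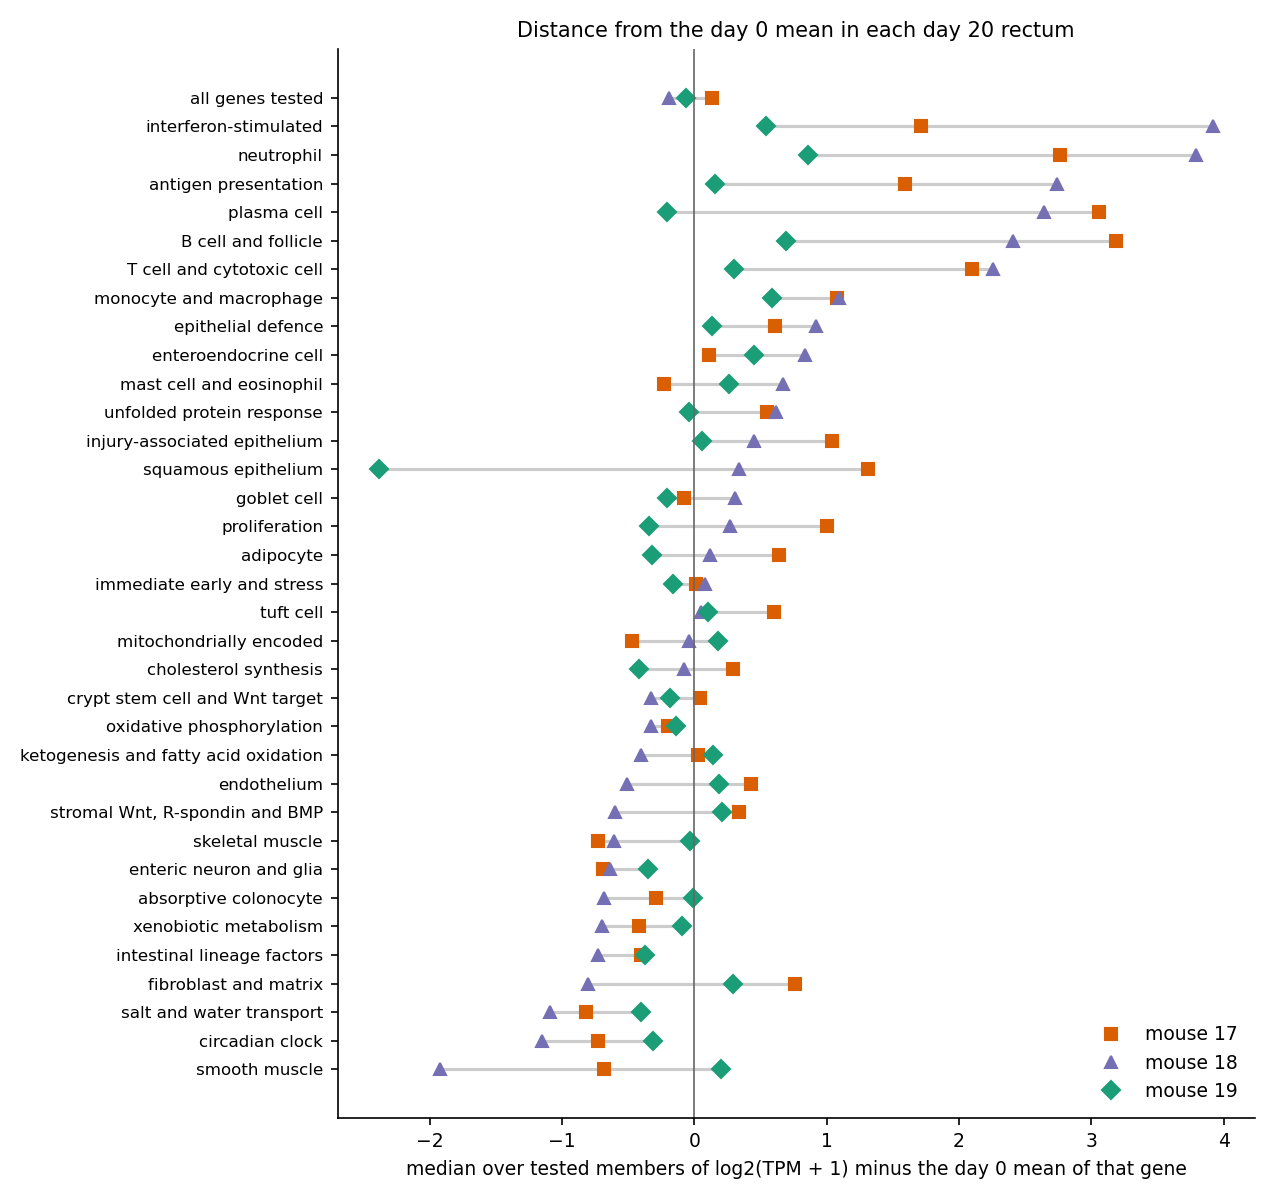
Median over the tested genes of each list of log2(TPM + 1) minus the gene's day 0 mean (horizontal axis), with 1 symbol for each day 20 mouse and lists ordered by mouse 18. Interferon-stimulated genes sit at 1.71, 3.92 and 0.54 in mice 17, 18 and 19, plasma cell genes at 3.06, 2.64 and -0.21, and salt and water transport at -0.82, -1.09 and -0.40, against 0.13, -0.19 and -0.06 for all genes tested.

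The plot of list medians by mouse shows lists on the same side of the day 0 mean in all 3 day 20 mice and lists on different sides. Of 34 lists 8 were below 0 in each mouse, among them salt and water transport, the circadian clock and intestinal lineage factors, at -0.40, -0.31 and -0.37 in mouse 19. Another 10 were above 0 in each, among them neutrophil, B cell, macrophage, interferon-stimulated, enteroendocrine and T cell genes, at 0.86, 0.69, 0.59, 0.54, 0.45 and 0.30 in mouse 19. In 6 lists mice 17 and 18 were above 0 and mouse 19 below, among them plasma cell, proliferation and squamous genes, at -0.21, -0.34 and -2.38 in mouse 19. For squamous genes that was the largest distance of the 3 mice, against 1.31 and 0.34 in mice 17 and 18. These distances are descriptions of single mice and carry no test.

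Day 20 was next set beside day 9, to place the residual levels on the course after DSS. Of 13097 genes tested, 778 (5.94%) were higher and 1939 (14.8%) lower at day 20 than at day 9. With the trimmed-mean scaling, which moved the median of all genes from -0.19 to 0.04, the numbers were 1774 higher and 1556 lower, so the balance of directions depends on the scaling. The count was 668 without day 9 mouse 13, 1539 without day 9 mouse 12, and 1563 and 1560 without day 20 mouse 18 or 19. Both comparisons use the same day 20 libraries.

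Neutrophil and cell cycle genes had come down from day 9: 16 of 16 neutrophil genes tested and 15 of 15 proliferation genes were lower at day 20, with medians of -4.62 and -1.82. Of the neutrophil genes, 8 were under the filter against day 0 and passed here only with their day 9 values counted in. The filter thus favoured a fall in these 8, and the neutrophil count and median have to be read with that limit. S100a8 averaged 5655 TPM at day 9 and 113 ± 116 TPM (SD, n = 3) at day 20, and Saa3 2473 TPM and 102 ± 93.6 TPM. Of 15 absorptive genes 10 were higher than at day 9 and 1 lower. Their summed level was 21142 to 24981 TPM at day 9, 44254, 46007 and 48272 TPM in mice 17, 18 and 19 at day 20, and 43714 to 46205 TPM at day 0, so that mice 17 and 18 lay inside the day 0 range and mouse 19 above it. Such a sum is weighted to the most abundant members. In 6 of the 15 genes all day 20 values lay below all day 0 values, and in 3 above. Mep1a, one of the 2 members called lower than at day 0, averaged 30.3 TPM at day 9, 206 ± 61.5 TPM (SD, n = 3) at day 20 and 363 ± 24.2 TPM (SD, n = 4) at day 0. In xenobiotic metabolism 21 of 31 were higher than at day 9.

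Interferon and B cell genes were not called between day 9 and day 20. Limma called none of 33 interferon-stimulated and none of 20 B cell genes, with 1 of each lower at an unadjusted p below 0.05, and Zbp1 averaged 241 TPM at day 9 and 147 ± 147 TPM (SD, n = 3) at day 20. Of the 12 genes with the largest rises over day 0, 5 were lower than at day 9, 5 were not called and 2 were higher. The 2 higher ones were Khdc1a, with 2.28, 2.94 and 2.28 TPM at day 9 (log2 change 3.64 ± 0.55 SE from day 9 to day 20, limma BH-adjusted p = 0.00632), and Myl7 (2.40 ± 0.64, limma BH-adjusted p = 0.0349). Khdc1a was already at 24.4, 30.4 and 33.9 TPM at day 14. Isx stood at 7.71 to 11.0 TPM at day 9 and 11.2 to 28.5 TPM at day 14, and its difference between day 20 and day 9 was not called (0.37 ± 0.44, limma BH-adjusted p = 0.585).

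Of the 12 largest falls, Mptx1 and Dbp were higher than at day 9, by 2.30 and 1.98 (limma BH-adjusted p = 0.00897 and 0.0181), and 9 were not called. Dpyd was not tested, because the filter needed 1 TPM in 3 libraries and only day 9 mouse 11, at 1.23 TPM, reached it. The lowest levels of Dpyd came late in the course: it stood at 4.19 to 6.04 TPM at day 3, 1.09 to 2.13 TPM at day 6, 0.368 to 1.23 TPM at day 9, 0.261 to 0.565 TPM at day 14 and 0.133 to 0.433 TPM at day 20. Scnn1g averaged 22.5 TPM at day 9 and 5.79 ± 3.33 TPM (SD, n = 3) at day 20, and this difference was not called (-1.53 ± 0.71, limma BH-adjusted p = 0.165).

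**Figure D4:**
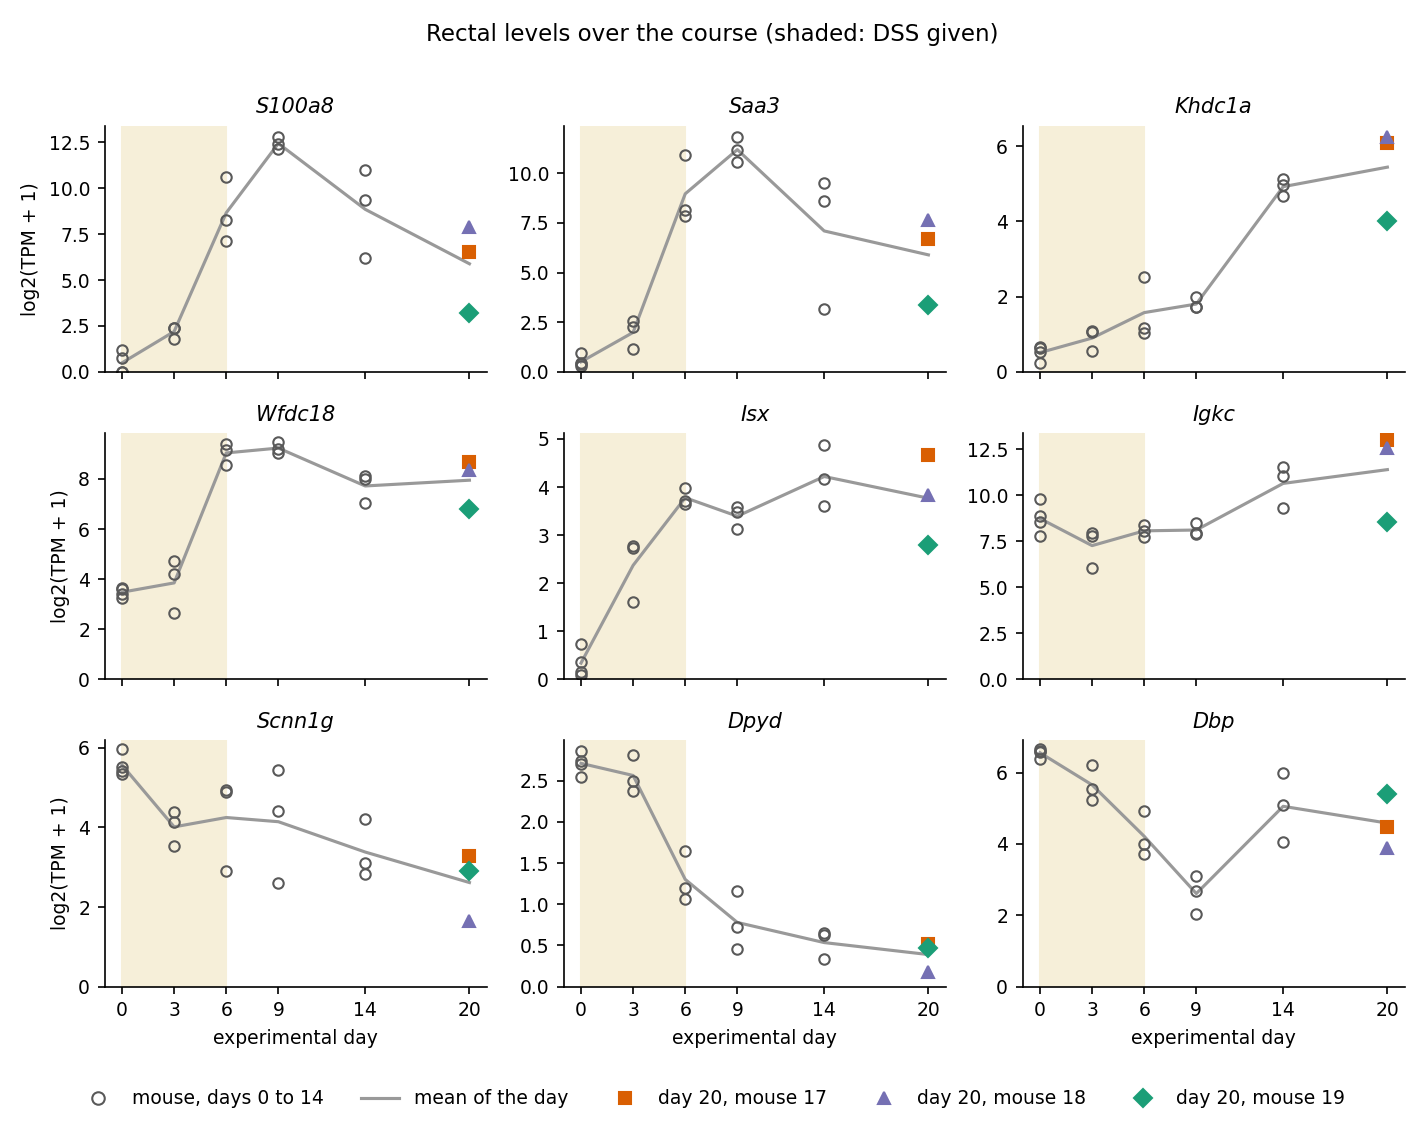
log2(TPM + 1) (vertical axis) of 9 genes in each of the 19 rectal libraries against the experimental day, with DSS given in the shaded days; open circles are single mice, lines join the means of each day and filled symbols mark day 20 mice 17, 18 and 19. S100a8 and Saa3 peak at day 9, Khdc1a is highest at day 20, and Dpyd at day 20 (0.133 to 0.433 TPM) is below every day 0 mouse (4.85 to 6.23 TPM).

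The same mice gave mid-colon libraries, which allowed a test of whether the day 20 change differed between sections. It was called for 1 of 13234 genes (0.00756%), Trbv25, and for 5 genes (0.0378%) with the mouse as a block, since both sections came from the same animals. At an unadjusted p below 0.05 there were 630 and 1183 genes. The 4 added by the block were Zbp1, Saa3, Gm6741 and Gm16089. Saa3 stood at 2.19, 14.7 and 0 TPM in the mid-colon of mice 17, 18 and 19, against 100.3, 196.6 and 9.38 TPM in their rectum, and its rectal change was larger by 4.19 ± 0.36 (SE; limma BH-adjusted p = 0.00959). Zbp1 stood at 46.5, 164.9 and 25.2 TPM in their mid-colon, and its rectal change was larger by 1.40 ± 0.16 (limma BH-adjusted p = 0.0427). Trbv25, Gm6741 and Gm16089 are a receptor segment and predicted genes whose reads may be shared with other loci. Without mouse 19 the count, unblocked, was 36, without mouse 17 it was 2, and without mouse 18 or any 1 of the day 0 mice limma called 0, with 373 to 729 genes at an unadjusted p below 0.05.

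For all 12 of the largest rises and all 12 of the largest falls in the rectum, the mid-colon mean of the same animals differed from its day 0 mean in the same direction; this count carries no test. Scnn1g averaged 16.7 TPM in the mid-colon at day 0 and 6.67 TPM at day 20, Dbp 91.5 and 32.8 TPM, Dpyd 6.04 and 0.918 TPM, and Fxyd4 169 and 35.6 TPM. Igkc averaged 512 TPM in the mid-colon at day 0 and 3800 TPM at day 20. Clca4b averaged 24.2 and 25.2 TPM in the mid-colon, and 20.7 and 413 TPM in the rectum, and the difference of 3.39 ± 1.57 between sections was not called (limma BH-adjusted p = 1.0).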

How the data were processed

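Rectal mucosa of 7 mice (4 at day 0, 3 at day 20) was analysed, with rectum at day 9 and mid-colon of the same mice as references. Per the labels' protocols, stranded mRNA libraries gave single reads of 75 bp, and the submitters' processing notes name CASAVA, kallisto and the build mm10. The authors deposited an abundance signal in TPM for each transcript, with no read counts, so depth is unknown and no counting error can be given. Identical repeats of a transcript were counted once (1318 repeated entries dropped) and TPM was summed per gene; 0.627% to 0.813% of TPM had no gene.

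Genes at 1 TPM or more in at least 3 libraries entered limma 3.58.1 (R 4.3.3; variance trend fitted across all genes, BH adjustment, threshold 0.05) after a log2 transform with a pseudocount of 1 TPM, and the fit was checked on simulated data. The log2 scale with a pseudocount understates changes of low genes. Replicates are separate mice. The day 20 change was compared between rectum and mid-colon by an interaction term, without and with the mouse as a block; the number pairs libraries of 1 animal, and their deviations from the group means correlated at -0.011 to 0.537 (mean 0.265).

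Named genes were the 12 largest called rises and falls with a mean of at least 5 TPM in the higher group and no overlap between groups (leaving out predicted genes, clone names, pseudogenes and immunoglobulin or T cell receptor segments), up to 4 called members of each of 34 lists with the largest change (or the most abundant member where none was called), cell type markers, and up to 5 genes called in the interaction. Members and lists were chosen with earlier results of these data known. Alternatives were trimmed-mean scaling factors, a pseudocount of 0.1 TPM, no filter, a filter at 5 TPM, removal of mitochondrially encoded genes, all 19 rectal libraries in 1 fit, and leaving out each library. Promoter windows of 250 bases are from RefSeq (GRCm38.p6), and windows starting over 1000 bases from the most abundant transcript's start were left out. Results on a few named list members are not reported here.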

Additional observations from a re-analysis of the deposited data

Results flagged for a closer look

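Single day 0 mice stood apart from the other 3 in 5 of the 120 named genes examined, where chance alone would mark about 1 in 20. Aqp4 was 13.0 TPM in day 0 mouse 4 against 6.52 to 7.41 TPM in the others, and Bmp2 was 32.0 TPM in the same mouse against 41.0 to 42.8 TPM. Timp1 was 3.43 TPM in day 0 mouse 3 against 2.16 to 2.35 TPM. Gm6741 was 1.74 TPM and Gm16089 0.0404 TPM in day 0 mouse 2, where the other 3 mice were at 0.00635 TPM or less.

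The day 20 change differed between rectum and mid-colon for Trbv25, a T cell receptor segment listed at 0 in every mid-colon library and every day 0 rectum, by 2.82 on the log2 scale (limma BH-adjusted p = 0.0327). With the mouse as a block it also differed for Zbp1 by 1.40, Saa3 by 4.19, Gm6741 by 3.61 and Gm16089 by 6.21. Without the block these 4 had limma BH-adjusted p of 0.0610 (Gm16089) to 1.0.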

How the results depend on the processing

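The number of genes called between day 20 and day 0 (973) was 1666 with trimmed-mean scaling and 202 of 21055 without a filter, and ranged from 52 to 2873 when 1 library was left out; it stayed within 1.5 times under the other alternatives. Between day 20 and day 9 (2717 called) it was 1624 without a filter, 5174 with all 19 rectal libraries in the fit, and 668 to 2660 when 1 library was left out. For the difference between sections (1 called) it was 0 with trimmed-mean scaling or a filter at 5 TPM, 3 without a filter, 5 with the mouse as a replicate block in the paired fit, and 0 to 36 when 1 animal was left out. Of the 85 named called genes, 82 kept the call with trimmed-mean scaling, 67 with all rectal libraries and 19 without a filter, where more genes entered the adjustment. Csf1r (0.24) became -0.03 and Pdgfra (0.45) -0.02 without day 20 mouse 17, and over the libraries left out ran up to 0.50 (without mouse 19) and 0.92 (without mouse 18); neither was called in the fits without mouse 17, and the cause was not tested. With 3 mice at day 20 that differ from each other, single calls rest on few animals, and without read counts the precision of low TPM values cannot be given.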
